A study of Mus musculus with 2 samples.

Results

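The genes described here are 37 cell cycle genes of the mouse, out of the 32285 genes in the count matrix, followed in tumour cells and leukocytes of mammary tumours. They were chosen by symbol from a fixed list and sorted by the phase in which each is best known to act: 4 G1 genes, 2 G1/S genes, 11 S genes, 17 G2/M genes, and 3 genes of chromatin and tubulin that are used as proliferation markers. All 37 symbols were found in the matrix. The rule uses symbols and no measured value, although the list was drawn up with earlier results of these data known. The cells of each class were chosen by other genes.

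A cell that enters division passes through G1, copies its DNA in S phase, and then prepares for and completes mitosis in G2/M. D-type cyclins with their kinases, and then E-type cyclins, inactivate the retinoblastoma protein and free E2F factors, which switch on genes for DNA replication. Genes of mitosis are transcribed later, through the DREAM, B-MYB and FOXM1 complexes, and their products are removed by the anaphase-promoting complex as the cell exits mitosis. In a tumour, carcinoma cells and expanding T and NK cells are the usual sources of these transcripts, while neutrophils have left the cycle and served here as the background class.

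The series addresses Kindlin-2, an integrin-binding adaptor encoded by Fermt2, in the escape of breast cancer from immunity. RNA of single cells was counted in 2 droplet libraries, 1 for each group. The control group was tumours of 4T1 cells, genotype WT, treated with Ctrl sgRNA, and the knockout group was tumours of 4T1 cells, genotype K2-KO, treated with K2 sgRNA. The 4T1 line came from a mouse mammary carcinoma and models breast cancer of the triple-negative kind. In both groups the cells were grown in the mammary fat pads of female mice of the strain the labels spell BLB/c, and tumours were excised at 150 mm3, digested for 45 min and sorted live by mCherry. The host leukocytes carried neither guide RNA by these labels. The age of the mice, the number of tumours pooled, the sorted fraction loaded and whether the knockout line is 1 clone are not given in the sources used here. With 1 library per group there is no replicate check. Differences are therefore between single libraries, and the 95% intervals in brackets reflect counting error alone.

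The control library held 8038 barcodes with 214163620 UMIs (counted RNA molecules), and the knockout library held 7250 barcodes with 180774106 UMIs. Filters and a doublet caller left 7530 cells of the control and 6761 of the knockout, of which 5067 and 4127 met 1 gate. A tumour cell needed at least 3 Epcam UMIs, a macrophage 3 C1qa UMIs, a monocyte 2 Ly6c2 UMIs, an NK cell 1 Ncr1 UMI, and CD8 and regulatory T cells 1 Cd3e UMI with 1 of Cd8a or Foxp3, all with limits on genes of other classes. In every class its 6 defining markers were detected in both libraries. There were 2925 control and 1964 knockout tumour cells, with medians of 38323 and 42657 UMIs. Levels are given as CPM, the UMIs of a gene scaled to a common total by all UMIs of the class in that library. Fermt2 stood at 39.6 CPM in control and 18.5 CPM in knockout tumour cells, a log2 ratio of -1.10 (-1.18 to -1.02). Reads at the 3′ end of a transcript do not show whether a guide cut the gene, so this level checks the labels only in part. A few cells in the tumour gate, 23 in the control and 72 in the knockout, held 10 or more UMIs of Wfdc18 or Krt5, markers of normal gland epithelium. Without these cells the Fermt2 log2 ratio was -1.31. Between the libraries, 13 barcode sequences were shared.

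Promoter sequences show what the S and G2/M genes have in common beyond the names used to choose them. The RefSeq promoter table for GRCm38.p6, the build also called mm10, held 31 promoters for 29 of the 37 genes, each running from 250 bases before the start to 50 bases after it. The cell cycle genes homology region (CHR), the element bound by DREAM and B-MYB complexes, was searched as TTTGAA or TTCGAA, and the CCAAT box, bound by NF-Y, as CCAAT. The E2F site was searched as TTTGGCGC or TTTCGCGC, and all motifs were searched on both strands. The 11 S promoters belong to 10 genes. A CHR match was present in 11 of 14 G2/M promoters and 2 of 11 S promoters, against 19.2% of all 32851 promoters in the table. A CCAAT box was present in 13 of 14 G2/M and 9 of 11 S promoters, against 37.4% of all. An E2F match was present in 4 of 11 S promoters (Mcm3, Mcm5, Mcm6 and Mcm7) and in 1 of 14 G2/M promoters (Cdk1), against 0.813% of all. The average GC content was 58.1% for the S and 59.1% for the G2/M promoters, above the 53.8% of all promoters. These matches are a description of letters in a window, not of binding. The 5 sequences below are the 250 bases upstream of the start for 3 G2/M genes and 2 S genes whose values are described in the next paragraphs. Each is written 5′ to 3′ on the gene's own strand, and capitals mark CHR, CCAAT and E2F matches, overlapping ones merged. Top2a lies at chr11:99024190-99024439 on the minus strand, Mki67 at chr7:135716380-135716629 (minus), Cdc20 at chr4:118437344-118437593 (minus), Mcm5 at chr8:75109259-75109508 (plus) and Mcm6 at chr1:128359706-128359955 (minus).
Top2a: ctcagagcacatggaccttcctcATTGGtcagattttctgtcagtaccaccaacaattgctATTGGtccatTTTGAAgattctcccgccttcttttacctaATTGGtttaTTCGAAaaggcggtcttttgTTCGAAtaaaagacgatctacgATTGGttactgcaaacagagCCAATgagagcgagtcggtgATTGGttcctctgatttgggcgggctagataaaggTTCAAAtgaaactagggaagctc
Mki67: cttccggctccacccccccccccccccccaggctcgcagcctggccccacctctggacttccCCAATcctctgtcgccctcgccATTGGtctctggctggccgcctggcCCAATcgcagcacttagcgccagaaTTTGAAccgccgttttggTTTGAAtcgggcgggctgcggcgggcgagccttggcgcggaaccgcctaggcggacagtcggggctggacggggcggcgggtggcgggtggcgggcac
Cdc20: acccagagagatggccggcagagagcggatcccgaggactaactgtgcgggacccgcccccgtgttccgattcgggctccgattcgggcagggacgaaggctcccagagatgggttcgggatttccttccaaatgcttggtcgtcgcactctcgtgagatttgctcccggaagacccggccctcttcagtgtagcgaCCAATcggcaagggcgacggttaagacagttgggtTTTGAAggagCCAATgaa
Mcm5: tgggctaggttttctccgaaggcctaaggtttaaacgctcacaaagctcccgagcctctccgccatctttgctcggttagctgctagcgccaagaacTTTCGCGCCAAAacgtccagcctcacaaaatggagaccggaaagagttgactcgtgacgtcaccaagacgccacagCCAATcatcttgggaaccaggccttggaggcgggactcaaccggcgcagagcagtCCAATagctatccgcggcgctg
Mcm6: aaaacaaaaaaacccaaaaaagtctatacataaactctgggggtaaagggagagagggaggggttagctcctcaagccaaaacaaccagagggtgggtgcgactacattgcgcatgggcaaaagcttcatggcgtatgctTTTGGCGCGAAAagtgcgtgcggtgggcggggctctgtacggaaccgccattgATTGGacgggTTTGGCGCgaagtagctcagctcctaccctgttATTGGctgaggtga
The Top2a window holds 4 CHR matches, the nearest 23 bases before the start, among several CCAAT boxes. That of Mki67 holds 2 CHR matches, the nearer 98 bases before the start. In Cdc20 a single CHR match stands 18 bases before the start between 2 CCAAT boxes. The Mcm5 and Mcm6 windows hold no CHR match and carry the E2F letters, overlapping matches on both strands included.

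In tumour cells every S gene had a higher level in the knockout library, while the G2/M genes were divided. Of the 37 genes, 5 were at least 1.5-fold higher in the knockout and 0 were at least 1.5-fold lower. Among the 17273 genes with at least 20 UMIs in tumour cells, 19.4% were that much higher and 6.26% that much lower, so neither count stands above the background. The 5 were Ccnd2, Ccne2, Rrm1, Hells and Top2a. The median log2 ratio of all 17273 genes was 0.13, and that of the 37 genes was 0.19.

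The S genes serve replication: Mcm2 to Mcm7 form the helicase that opens DNA, Pcna is the sliding clamp of the polymerases, Tyms, Rrm1 and Rrm2 make nucleotides, and Hells remodels chromatin. All 11 had log2 ratios above 0, with a median of 0.42, beside a median of 0.13 for all genes, also above 0. Hells had 65.5 CPM in the control library and 105 CPM in the knockout library, for a log2 ratio of 0.68 (0.64 to 0.73). Rrm1, the large subunit of ribonucleotide reductase, had 29.2 and 46.1 CPM (0.66, 0.60 to 0.72). These were the only S genes past 1.5-fold. Mcm6 stood at 67.8 CPM in the control and 96.8 CPM in the knockout (log2 ratio 0.52). Mcm5 stood at 38.2 and 51.9 CPM (0.44). Mcm2, Mcm3 and Mcm7 lay between 0.36 and 0.38, and Tyms and Rrm2 at 0.42 and 0.44. The smallest ratios belonged to Pcna and Mcm4. Pcna had 84.4 CPM in the control and 88.0 CPM in the knockout (0.06, 0.02 to 0.10). Mcm4 had 33.7 and 35.9 CPM (0.09, 0.03 to 0.15), also below the median of all genes.

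The 17 G2/M genes had a median log2 ratio of 0.10 in tumour cells, close to that of all genes, with 13 above 0. Top2a, the topoisomerase that untangles replicated chromosomes, was the 1 gene past 1.5-fold, at 194 CPM in the control and 296 CPM in the knockout (0.61, 0.58 to 0.63). Mki67, the Ki-67 antigen that coats mitotic chromosomes, had 81.0 and 109 CPM (0.43, 0.39 to 0.47). Ccna2, the cyclin of S phase and G2, had 35.1 and 47.0 CPM (0.42), and Birc5, the survivin subunit of the chromosomal passenger complex, 116 and 152 CPM (0.39). Its partner kinase Aurkb stood at 0.27. These 5 genes had the highest ratios of the phase. The 4 G2/M genes with ratios below 0 follow. Ube2c, the ubiquitin-conjugating enzyme of the anaphase-promoting complex, had 162 CPM in the control and 125 CPM in the knockout (-0.37, -0.40 to -0.34). Aurka, the centrosome kinase that the same complex degrades, had 23.5 and 19.6 CPM (-0.26, -0.34 to -0.18). Ccnb2, a B-type cyclin of mitotic entry, had 78.7 and 74.2 CPM (-0.08). Tpx2, the spindle activator of Aurka, had 66.3 and 65.0 CPM (-0.03, -0.07 to 0.02). The remaining 8 genes lay between 0.01 for Ccnb1 and 0.19 for Cenpe. They were the kinase Cdk1 (0.06), the checkpoint genes Bub1 (0.14) and Bub1b (0.02), the polo kinase Plk1 (0.16), the kinetochore gene Cenpf (0.10) and Cdc20 (0.07), which activates the anaphase-promoting complex.

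Of the genes that act before S phase, Ccnd1, the main D-type cyclin of mammary epithelium, had almost the same level in both libraries, 964 and 996 CPM (0.05, 0.04 to 0.06). Ccnd2 was higher in the knockout at 14.4 and 22.5 CPM (0.64, 0.56 to 0.73), and Ccnd3 was lower at 56.8 and 41.0 CPM (-0.47, -0.53 to -0.42). The 3 D-type cyclins thus did not share a direction. Cdkn1b, the inhibitor p27 that holds cells out of S phase, had 44.0 and 42.9 CPM (-0.035, -0.09 to 0.02). The E-type cyclins, which drive entry into S phase, were both higher in the knockout. Ccne2 had 3.86 and 7.18 CPM (0.89, 0.73 to 1.06), the largest log2 ratio of the 37. Ccne1 had 3.32 and 4.78 CPM (0.52, 0.33 to 0.71). Of the chromatin and tubulin genes, Hmgb2, a chromatin protein of dividing cells, had 525 and 646 CPM (0.30), the tubulin gene Tubb5 1090 and 911 CPM (-0.26), and Stmn1, which destabilises microtubules, 103 CPM in both.

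**Figure D1:**
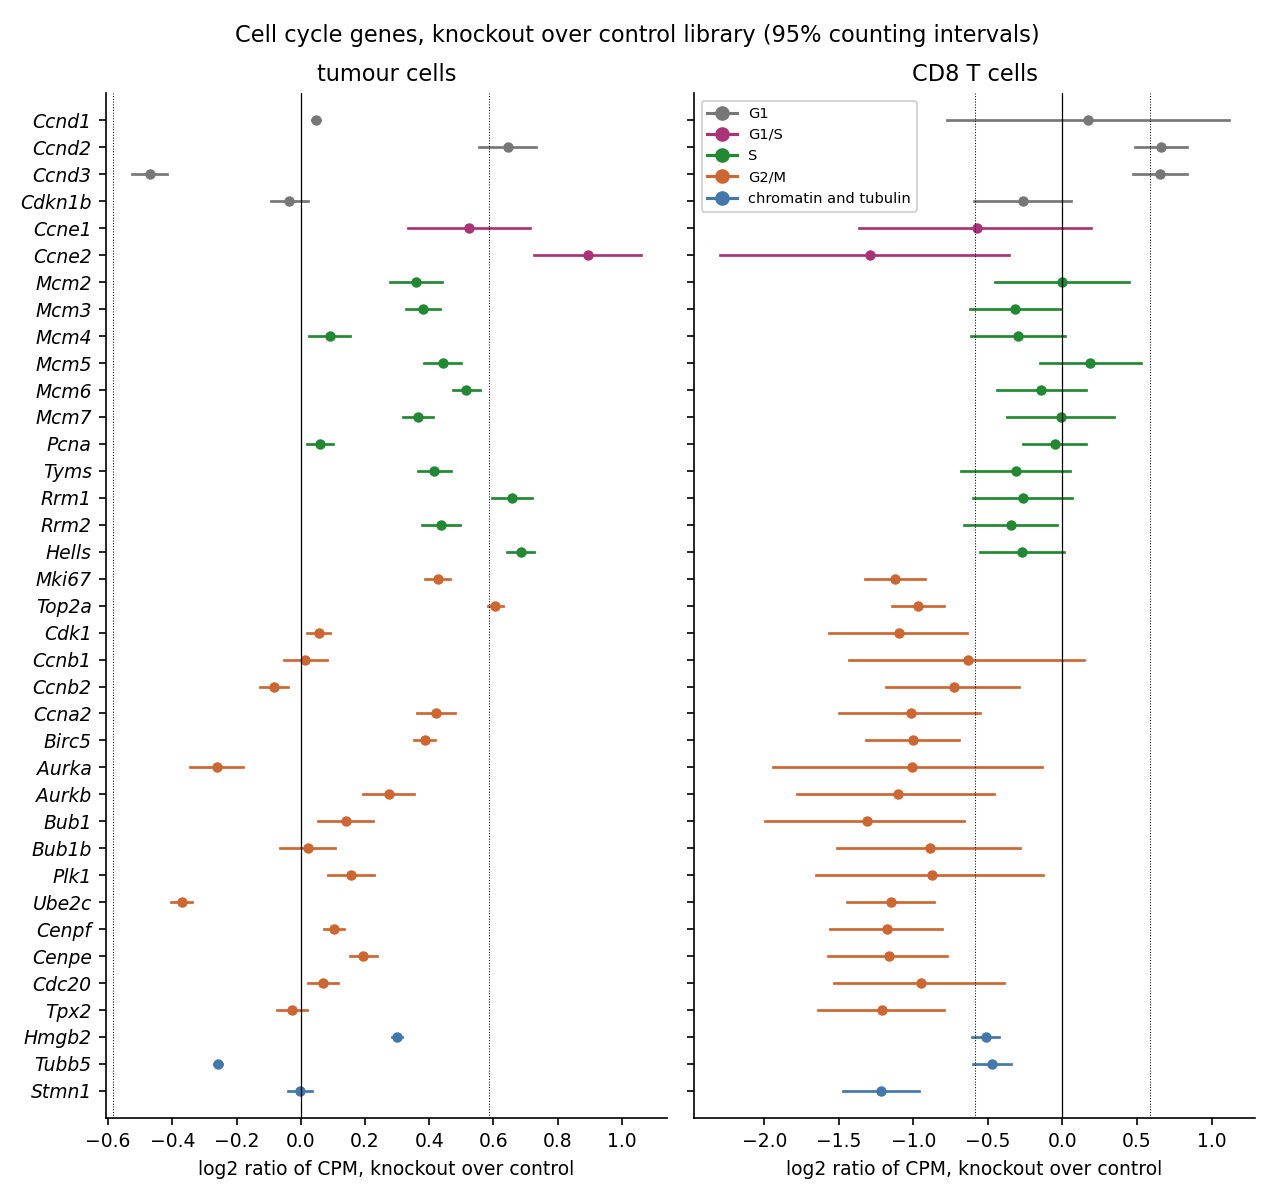
Log2 ratio of CPM, knockout over control, for each of the 37 genes in tumour cells (left) and CD8 T cells (right), coloured by phase, with 95% counting intervals; dotted lines mark 1.5-fold and the x axes differ. In tumour cells the 11 S genes all lie right of 0, and in CD8 T cells the 17 G2/M genes all lie left of the lower dotted line.

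Summed over genes, the S set stood at 523 CPM (519 to 527) in control tumour cells and 693 CPM (687 to 698) in knockout ones, a log2 ratio of 0.40 (0.39 to 0.42). The G2/M set stood at 1260 CPM (1254 to 1266) and 1429 CPM (1422 to 1436), with a smaller log2 ratio of 0.18 (0.17 to 0.19). G2/M genes accordingly took 70.7% of the S and G2/M UMIs in the control and 67.4% in the knockout. Gland epithelium markers moved with these sums, at 70.1 CPM in the control and 288 CPM in the knockout over their list, with 0 of 6 markers at 0 in either library. Without the cells rich in Wfdc18 or Krt5 the log2 ratios were 0.39 for S and 0.19 for G2/M. The looser gate of 1 Epcam UMI, which admitted 3507 and 2272 cells, gave 0.40 and 0.23.

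A larger share of knockout tumour cells held these transcripts, while cells rich in G2/M UMIs held fewer of them in the knockout than in the control. Cells were first thinned to 1000 UMIs, and a cell was called positive with 2 UMIs of a set. S-positive cells were 9.13% (8.11 to 10.2) of 2924 control and 13.2% (11.7 to 14.8) of 1964 knockout cells. G2/M-positive cells were 16.3% (15 to 17.7) and 22.2% (20.4 to 24.1). Without thinning the G2/M shares were 70.0% and 79.0%. In neutrophils, which should lack these genes, the thinned G2/M share was 0.269% (1 of 372 cells) in the control and 1.13% (2 of 177) in the knockout. The median depths of neutrophils were 2614.5 and 2886 UMIs. Tumour cells are deep enough to be thinned to 10000 UMIs, which left out 60 control and 23 knockout cells. At that depth 19.6% (18.1 to 21.1) of control and 28.0% (26.0 to 30.1) of knockout cells held at least 10 G2/M UMIs. At the upper end the order was the other way round. At least 60 G2/M UMIs were found in 4.50% (3.77 to 5.33) of control and 3.35% (2.59 to 4.25) of knockout cells, and at least 80 in 2.55% and 0.824%. Among cells with at least 10, the median was 36 G2/M UMIs (quartiles 19 and 57) in the control and 28 (18 and 43) in the knockout. For S genes, at least 6 UMIs were found in 24.0% (22.5 to 25.6) and 34.6% (32.5 to 36.7) of cells, and at least 20 in 3.56% and 5.31%.

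**Figure D2:**
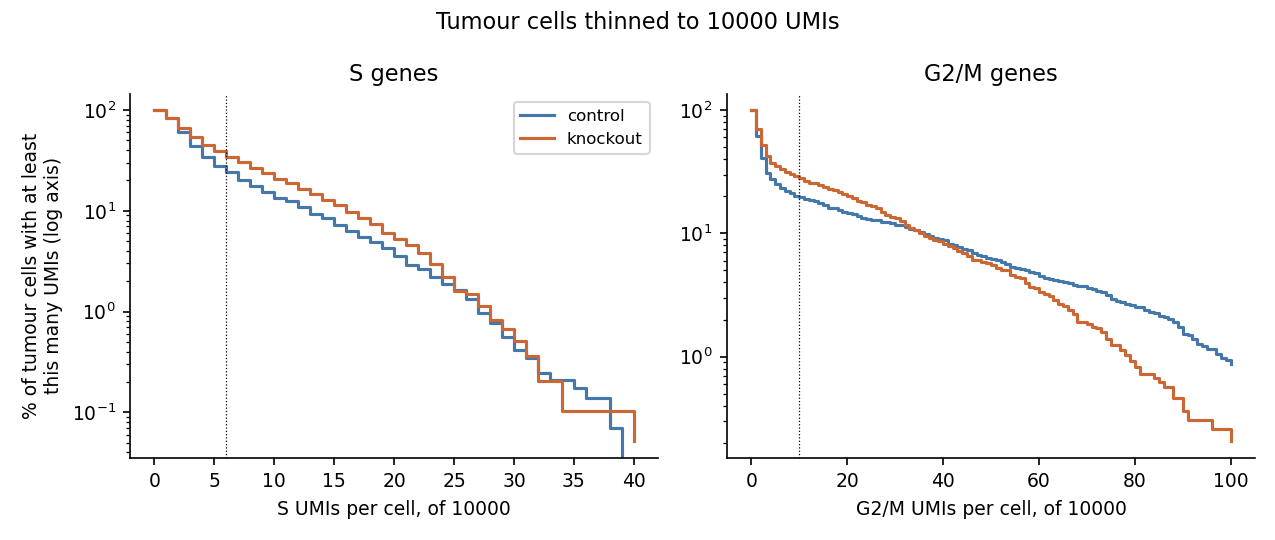
Percentage of tumour cells (log axis) with at least the number of S (left) or G2/M (right) UMIs on the x axis, after thinning every cell to 10000 UMIs; dotted lines mark 6 S and 10 G2/M UMIs. The knockout curve lies above the control at 10 G2/M UMIs (28.0% against 19.6%) and below it at 60 (3.35% against 4.50%).

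The tumour cells were then divided at 6 S UMIs and 10 G2/M UMIs of 10000 into 4 ranges: low, S, S and G2/M, and G2/M. Low cells were 66.2% of control and 54.0% of knockout tumour cells. S cells were 14.2% and 18.0%, S and G2/M cells 9.81% and 16.6%, and G2/M cells 9.77% and 11.4%. These are ranges of a continuous count and not cell types. Between 8 and 11 G2/M UMIs lay 2.55% of control and 4.43% of knockout cells, and 5 or 6 S UMIs were held by 7.57% and 8.14%. Cells in the higher ranges were also deeper, with control medians of 33880 UMIs in low cells and 60178 UMIs in S and G2/M cells. The cut used the S and G2/M genes themselves, so their increase from low cells upward is fixed by the cut, and ratios between libraries within a range are limited by it. For the level of a single gene in a range, that gene was left out of the sums that sorted the cells, so the cells of a range differ slightly from gene to gene. The values within ranges are a description only.

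In S and G2/M cells the log2 ratios of the 17 G2/M genes ran from -0.88 for Ube2c to 0.07 for Top2a. Ube2c had 400 CPM in control and 218 CPM in knockout S and G2/M cells (-0.88), and 762 and 465 CPM in G2/M cells (-0.71). Aurka had 61.9 and 34.6 CPM in S and G2/M cells (-0.84), and 102 and 70.7 CPM in G2/M cells (-0.52). Ccnb2 stood at -0.56, Tpx2 at -0.54, Ccnb1 at -0.53 and Cdc20 at -0.50 in S and G2/M cells. Top2a and Mki67 were closer to equal there. Top2a had 690 and 724 CPM in S and G2/M cells (0.07), and Mki67 had 266 and 255 CPM (-0.06). In S cells the ratios of the 17 genes ran from -0.16 for Bub1b to 0.76 for Cenpf, with a median of 0.33. Top2a had 110 CPM in control and 181 CPM in knockout S cells (0.71). Mki67 had 22.1 and 36.6 CPM (0.73), and Cenpf 12.8 and 21.6 CPM (0.76). These were the highest ratios of the 17 in that range. In low cells the ratios ran from -0.46 for Aurka to 0.76 for Top2a (16.4 and 27.8 CPM), with a median of 0.10. Cenpf stood at 0.70 and Mki67 at 0.56 in low cells.

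The genes that precede S phase showed another pattern across the ranges. In the control library Ccnd1 lay between 812 CPM in low cells and 1196 CPM in G2/M cells, and Ccnd2 and Ccnd3 were highest in low cells. Ccnd2 was higher in the knockout in all 4 ranges, with log2 ratios between 0.67 and 0.94. Ccnd3 was lower in all 4, between -0.32 and -0.54. Cdkn1b was lowest in S cells, at 31.3 and 30.8 CPM, against 44.8 and 47.1 CPM in low cells. It was highest in G2/M cells, at 58.6 and 57.0 CPM. Ccne1 had 13.3 and 12.7 CPM in S and G2/M cells, the range where it was highest in each library. Tubb5 was lower in the knockout in all 4 ranges, between -0.36 and -0.47.

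**Figure D3:**
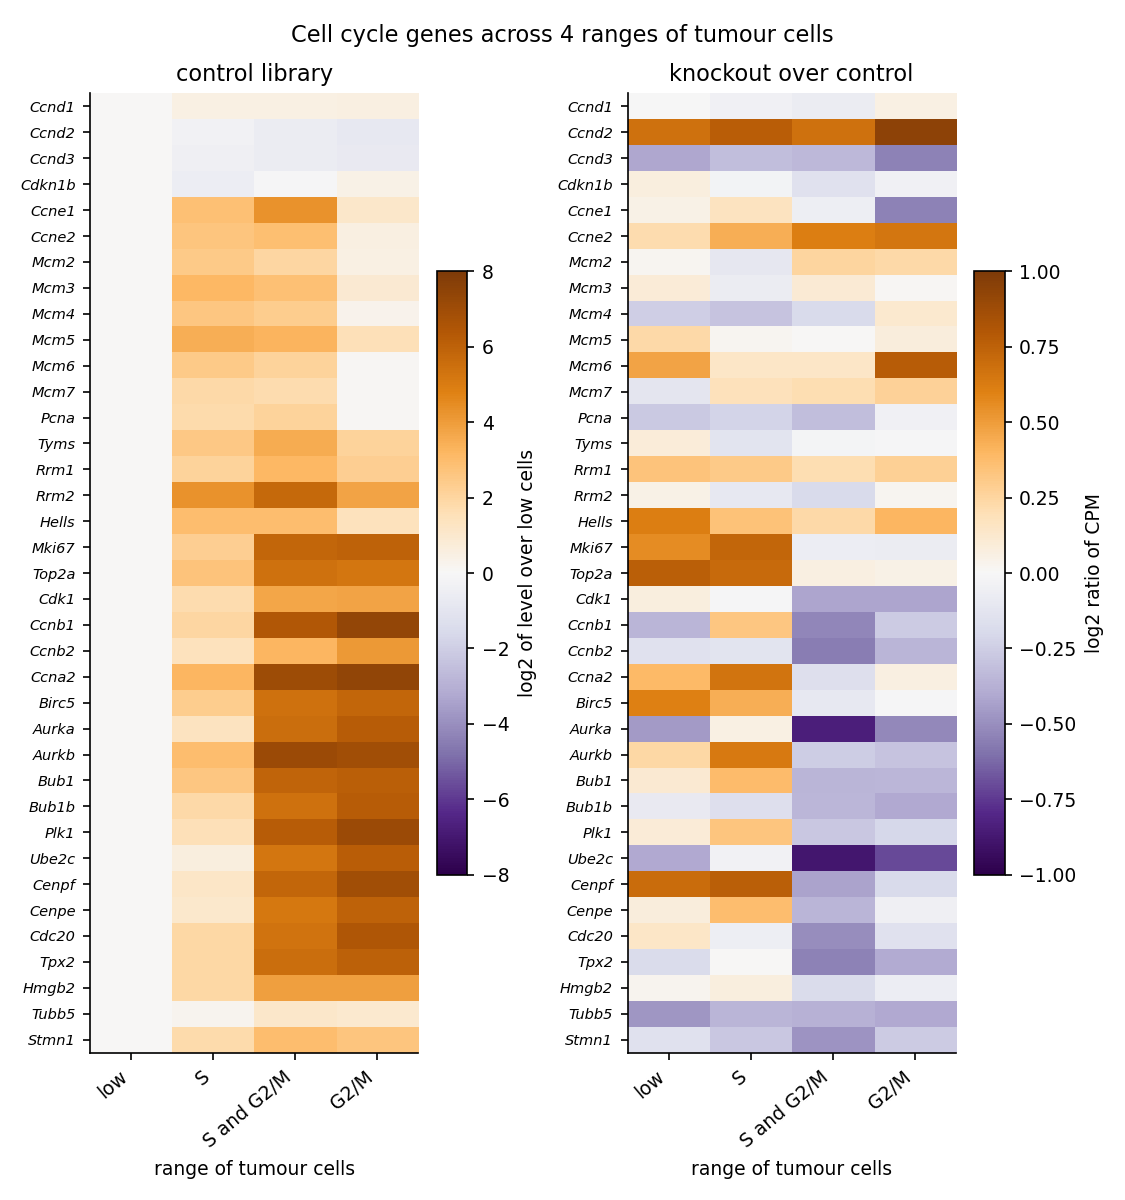
Left, the level of each gene in 4 ranges of control tumour cells as the log2 of its ratio to low cells; right, the log2 ratio of knockout over control within each range. Ube2c (-0.88) and Aurka (-0.84) are lower in knockout S and G2/M cells, and Ccnd2 is higher in every range.

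Further lists of cycle genes were counted in tumour cells in the same way. Of 33 further replication genes, 10 passed 1.5-fold upward in the knockout and 0 downward, beside 19.4% and 6.26% of all genes, with a median of 0.39 beside 0.13. Pola1, the catalytic subunit of DNA polymerase alpha, had 77.8 and 149 CPM (0.94), Pole, that of polymerase epsilon, 10.6 and 19.9 CPM (0.91), and Mcm10, which helps start forks, 6.31 and 11.5 CPM (0.86). The lowest 3 were Dut, which removes dUTP (232 and 180 CPM, -0.37), Cdc45 of the replicative helicase (26.2 and 25.1 CPM, -0.06) and the clamp loader gene Rfc4 (31.0 and 30.3 CPM, -0.03). Of 51 further mitosis genes, 6 passed 1.5-fold upward, a smaller share than among all genes, and 0 downward, and the median was 0.23. Anln, a scaffold of the cleavage furrow, was highest at 81.1 and 132 CPM (0.70), followed by Pbk (0.68) and the kinetochore gene Spc24 (0.64). The lowest was Cdc25b, a phosphatase that activates Cdk1, at 15.8 and 11.4 CPM (-0.47), then Ckap2l (-0.31) and Ckap2 (-0.12).

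Among 20 measured of 22 genes of G1 control, 2 passed 1.5-fold in each direction, beside 19.4% and 6.26% of all genes, and the median was 0.13, that of all genes. Btg2, an antiproliferative gene induced by p53, had 174 CPM in the control and 64.8 CPM in the knockout (-1.42, -1.46 to -1.38). Cdkn1a, the p53-induced inhibitor p21, had 30.2 and 17.6 CPM (-0.78), and Ccng2, an unusual cyclin of arrested cells, 22.1 and 16.2 CPM (-0.45). On the other side, Skp2, the ubiquitin ligase subunit that targets p27, had 13.8 and 22.9 CPM (0.73), and the retinoblastoma relative Rbl1 14.1 and 19.4 CPM (0.46). Cdkn1c, another inhibitor, rested on 4 control and 19 knockout UMIs (2.62, 1.03 to 4.63). Without the cells rich in Wfdc18 or Krt5, 1 gene of this list was at least 1.5-fold higher.

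Across cell classes, the G2/M sum was highest in tumour cells, CD8 T cells and regulatory T cells. In the control library CD8 T cells had 1406 CPM (1358 to 1454), tumour cells 1260 CPM, regulatory T cells 934 CPM (859 to 1013), macrophages 544 CPM (535 to 553) and NK cells 248 CPM (215 to 286). In the knockout library tumour cells came first with 1429 CPM, then regulatory T cells with 968 CPM (924 to 1014), CD8 T cells with 679 CPM (646 to 714), NK cells with 512 CPM (488 to 536) and macrophages with 431 CPM (421 to 441). Monocytes had 78.0 and 48.0 CPM, near the 50.7 and 80.2 CPM of neutrophils. Mature and Cd209a dendritic cells numbered 8 and 24 in the control, under the 50 set for a comparison. Leukocyte sums often rested on few cells, so the share held by the top cell is given with the G2/M sum of each compared leukocyte class. In neutrophils the top cell held 20.7% of 58 control and 25.5% of 47 knockout G2/M UMIs. The log2 ratio of this background class was 0.66 (0.07 to 1.24), and 0.57 (-0.10 to 1.24) without the top cell of each library. In neutrophils the macrophage list summed to 243 and 1648 CPM, with 0 of 6 markers at 0. The tumour list summed to 374 CPM, with 0 of 6 at 0, and 101 CPM, with 1 at 0. The part of these lists in the neutrophil values was not tested.

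**Figure D4:**
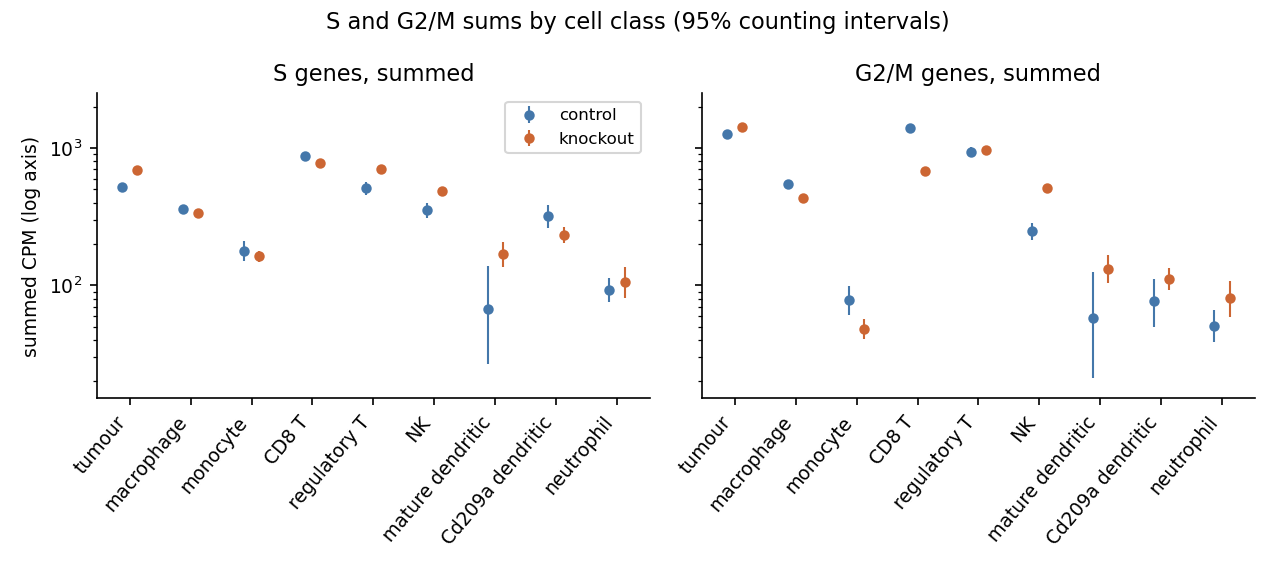
Summed CPM (log axis) of the 11 S genes (left) and 17 G2/M genes (right) in each gated class, control and knockout, with 95% counting intervals. The G2/M sum of CD8 T cells is 1406 CPM in the control and 679 CPM in the knockout, while that of tumour cells is 1260 and 1429 CPM.

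In CD8 T cells the G2/M genes were lower in the knockout library as a whole set, and the S genes differed by less. All 17 G2/M genes were at least 1.5-fold lower in the knockout library, where 9.52% of the 10034 genes measured in these cells were that much lower and 11% that much higher. Most UMIs of the 17 genes lay in few cells, as given below, so they are not separate results to set against these shares. The median log2 ratio was -1.02 for the G2/M genes and -0.01 for all genes. Mki67 had 275 CPM in 187 control cells and 126 CPM in 192 knockout cells (-1.12, -1.33 to -0.92). Top2a had 335 and 172 CPM (-0.97, -1.14 to -0.79). Ube2c had 136 and 61.3 CPM (-1.15, -1.44 to -0.86), and the proliferation marker Stmn1 184 and 79.3 CPM (-1.21). Bub1 was lowest by ratio at 29.8 and 12 CPM (-1.31), and Ccnb1 the least low at 15.9 and 10.3 CPM (-0.63, -1.43 to 0.14). The G2/M sum had a log2 ratio of -1.05 (-1.14 to -0.96). That interval does not cover the gathering of UMIs in few cells, so the ratio is less certain than it shows.

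The S genes of CD8 T cells had a median log2 ratio of -0.27, and 1 of 11, Mcm5, was above 0. Their sums were 882 CPM (844 to 920) for control cells and 785 CPM (749 to 822) for knockout cells (log2 ratio -0.17), and 0 of 11 passed 1.5-fold in either direction. Pcna had 161 and 156 CPM (-0.05), and Mcm2 36.5 and 36.4 CPM (-0.00). G2/M genes thus took 61.5% (60.1 to 62.7) of the S and G2/M UMIs in the control and 46.4% (44.7 to 48.1) in the knockout. Ccne2 was lower in the knockout, at 14.7 and 6.0 CPM (-1.29). The D-type cyclins of lymphocytes were higher in the knockout. Ccnd2 had 185 and 293 CPM (0.66, 0.49 to 0.84), and Ccnd3 176 and 277 CPM (0.66, 0.48 to 0.84).

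Fewer CD8 T cells of the knockout library held G2/M transcripts. At least 10 G2/M UMIs were found in 38 of 187 control cells (20.3%, 14.8 to 26.8) and 17 of 192 knockout cells (8.85%, 5.24 to 13.8), at median depths of 10350 and 9762.5 UMIs. At 1000 UMIs, 14.4% (9.74 to 20.3) of control and 4.69% (2.17 to 8.71) of knockout cells were G2/M-positive, against 42.2% and 29.7% without thinning. The thinned shares come from 1 random draw, and the G2/M shares expected over all draws were 14.77% and 6.002%. S-positive cells were 14.4% and 10.4%. The top cell held 10.6% of the control and 13.6% of the knockout G2/M UMIs, and without it the log2 ratio was -1.11. The 10% of cells with the most G2/M UMIs held 79.1% of the control and 89.1% of the knockout sum. The 4 cells with the most G2/M UMIs in each library held between 67 and 152 UMIs of the CD8 T markers. They also held between 20 and 158 UMIs of the regulatory T list, which likewise includes Cd3e. Over the class that list summed to 1926 and 1982 CPM, with 1 of 6 markers at 0 in each library. Other markers differed within the class. The NK list, which includes Gzma, Prf1 and Klrk1 that cytotoxic T cells also express, summed to 1816 CPM in the control, with 0 of 6 markers at 0, and 689 CPM in the knockout, with 1 of 6 at 0. The list of mature dendritic cells, which includes Ccl5, a gene T cells also express, summed to 1129 and 2512 CPM with 0 of 6 at 0 in both. The Cd209a dendritic list stood at 51.6 CPM, with 1 of 6 at 0, and 426 CPM, with 0 at 0, and the neutrophil list at 209 and 83.6 CPM, with 0 at 0. The part of these differences in the result was not tested. The fibroblast list stood at 647 and 14.2 CPM, and 1 control cell held 1526 of its 1543 UMIs and 2 G2/M UMIs.

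Macrophages had lower levels of most of these genes in the knockout library, with 8 of 37 above a log2 ratio of 0. The median was -0.21, beside 0.01 for all genes measured in this class. Of the 37, 3 were at least 1.5-fold lower and 0 higher, beside 3.70% lower and 9.77% higher among 13798 genes. The 3 were Hells (23.1 and 14.7 CPM, -0.66), Cenpf (34.4 and 19.8 CPM, -0.80) and Stmn1 (58.2 and 37.0 CPM, -0.65). The sums had log2 ratios of -0.11 for S and -0.34 (-0.38 to -0.30) for G2/M. At 1000 UMIs the G2/M-positive shares were 7.73% (6.32 to 9.34) in the control and 8.43% (6.67 to 10.5) in the knockout. These are values of 1 random draw, and the shares expected over all draws were 7.84% and 7.10%. Cells with at least 10 G2/M UMIs were 12.9% and 12.7%. The top cell held 2.03% and 3.21% of the G2/M UMIs. Lists of other cell types differed within the class. The monocyte list summed to 861 and 1202 CPM, the mature dendritic list to 217 and 389 CPM and the Cd209a dendritic list to 7518 and 9134 CPM, each with 0 of 6 markers at 0. The NK list summed to 23.3 CPM, with 2 of 6 at 0, and 42.3 CPM, with 1 at 0, and the part of these lists in the result was not tested.

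Regulatory T cells had higher S levels in the knockout library and nearly equal G2/M levels. There were 75 control and 177 knockout cells. The S sum was 511 and 706 CPM (0.47, 0.29 to 0.65), and the G2/M sum 934 and 968 CPM (0.05, -0.08 to 0.19). Of the 37 genes, 9 were at least 1.5-fold higher and 2 lower, beside 12.5% and 9.23% of 8644 genes. Mcm5 was the S gene with the largest ratio, at 19.5 and 60.2 CPM (1.63, 0.76 to 2.62), on 12 control UMIs of which 1 cell held 50%. Both sums rested on few cells. A single cell held 32.5% of the control and 9.12% of the knockout S UMIs, and 46.3% of the control and 15.7% of the knockout G2/M UMIs. The S log2 ratio was 0.60 and the G2/M log2 ratio 0.68 without the cell of each library with the most G2/M UMIs. At 1000 UMIs, 6.67% (2.20 to 14.9) of control and 6.21% (3.14 to 10.8) of knockout cells were G2/M-positive, and the shares expected over all draws were 5.45% and 7.04%. Tumour markers summed to 163 CPM in the control and 48.1 CPM in the knockout, with 0 of 6 at 0. The macrophage list summed to 140 CPM, with 1 of 6 at 0, and 52.8 CPM, with 0 at 0, and the mature dendritic list to 989 and 622 CPM with 0 at 0. The NK list summed to 43.9 CPM, with 2 of 6 at 0, and 144 CPM, with 0 at 0, and the neutrophil list to 6.51 CPM, with 3 at 0, and 47.5 CPM, with 1 at 0. The part of these lists in the result was not tested.

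NK cells had 248 CPM of G2/M transcripts in 105 control cells and 512 CPM in 395 knockout cells, a log2 ratio of 1.04 (0.83 to 1.27). By gene, 18 of 36 measured were at least 1.5-fold higher and 1 lower, beside 14.0% and 7.03% of 9722 genes. Top2a had 57.6 and 132 CPM (1.20, 0.75 to 1.67), and Ube2c 11.5 and 45.0 CPM (1.97, 1.01 to 3.12). A single cell held 59.3% of the control and 11.6% of the knockout G2/M UMIs, and without the top cell of each library the ratio was 2.15, on 79 control UMIs. When each cell weighed the same, the log2 ratio was -0.056. Cells with at least 10 G2/M UMIs were 2 of 105 (1.90%, 0.232 to 6.71) and 19 of 395 (4.81%, 2.92 to 7.41). At 1000 UMIs the G2/M-positive shares were 3.81% (1.05 to 9.47) and 2.53% (1.22 to 4.61), and those expected over all draws 3.62% and 3.55%. The control cells ranked 2 to 4 by G2/M UMIs held 0 S UMIs and between 7 and 15 UMIs of tumour markers. The top control cell held 83 UMIs of NK markers and 0 of neutrophil markers, and the top knockout cell held 1 and 31. The tumour list summed to 152 CPM in the control and 56.2 CPM in the knockout, with 0 of 6 markers at 0, and the fibroblast list to 28.2 CPM, with 2 of 6 at 0, and 290 CPM, with 0 at 0. Their part in the result was not tested.

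Monocytes held few of these transcripts. The G2/M sum rested on 67 UMIs in 90 control cells and 138 UMIs in 253 knockout cells (-0.70, -1.13 to -0.26). The top cell held 44.8% of the control and 7.25% of the knockout UMIs. That of the control carried them together with 30 UMIs of tumour markers and 161 of macrophage markers. Without the top cell of each library the sums were 43.8 and 44.9 CPM (0.035, -0.50 to 0.60). Of 14 genes with at least 20 UMIs, 0 were at least 1.5-fold higher and 1 lower, beside 12.2% and 7.87% of 9006 genes. The macrophage list summed to 3864 and 2766 CPM and the tumour list to 137 and 74.1 CPM, each with 0 of 6 markers at 0, and their part in the result was not tested.

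Levels of the D-type cyclins differed widely between cell classes. Each pairs with Cdk4 or Cdk6 and relays growth signals, and tissues use different members. Ccnd1 was highest in tumour cells, at 964 CPM in the control and 996 CPM in the knockout. Cd209a dendritic cells (144 and 137 CPM) and macrophages (136 and 127 CPM) followed with overlapping intervals, then monocytes (51.2 and 61.6 CPM). CD8 T cells, at 8.39 and 9.43 CPM, were lowest in the control, and regulatory T cells, at 27.7 and 5.81 CPM, were lowest in the knockout, where the intervals of these classes overlap. Tumour markers summed to 69.6 and 57.9 CPM in CD8 T cells and to 163 and 48.1 CPM in regulatory T cells. The part of tumour RNA in these Ccnd1 levels was not tested. Ccnd2 was lowest in tumour cells in both libraries. It was highest among the compared classes in regulatory T cells, at 577 and 538 CPM, followed by NK cells at 301 and 303 CPM. In the 27 mature dendritic cells of the knockout it stood at 667 CPM (601 to 738), and in the 8 of the control at 287 CPM (193 to 409).

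Ccnd3 was highest in NK cells, at 495 and 486 CPM, above CD8 T cells at 176 and 277 CPM and regulatory T cells at 132 and 179 CPM. Neutrophils also carried it, at 190 and 293 CPM, with intervals that overlap those of CD8 T cells in both libraries. It was lowest in macrophages in the control (34.7 CPM) and in tumour cells in the knockout (41.0 CPM), with mature dendritic cells between them on few UMIs. Cdkn1b was highest in regulatory T cells, at 138 and 135 CPM, and neutrophils, at 136 and 102 CPM, whose intervals overlap. It was lowest in macrophages, at 36.4 and 33.3 CPM, below tumour cells at 44.0 and 42.9 CPM, and the interval of the 8 control mature dendritic cells spans both.

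**Figure D5:**
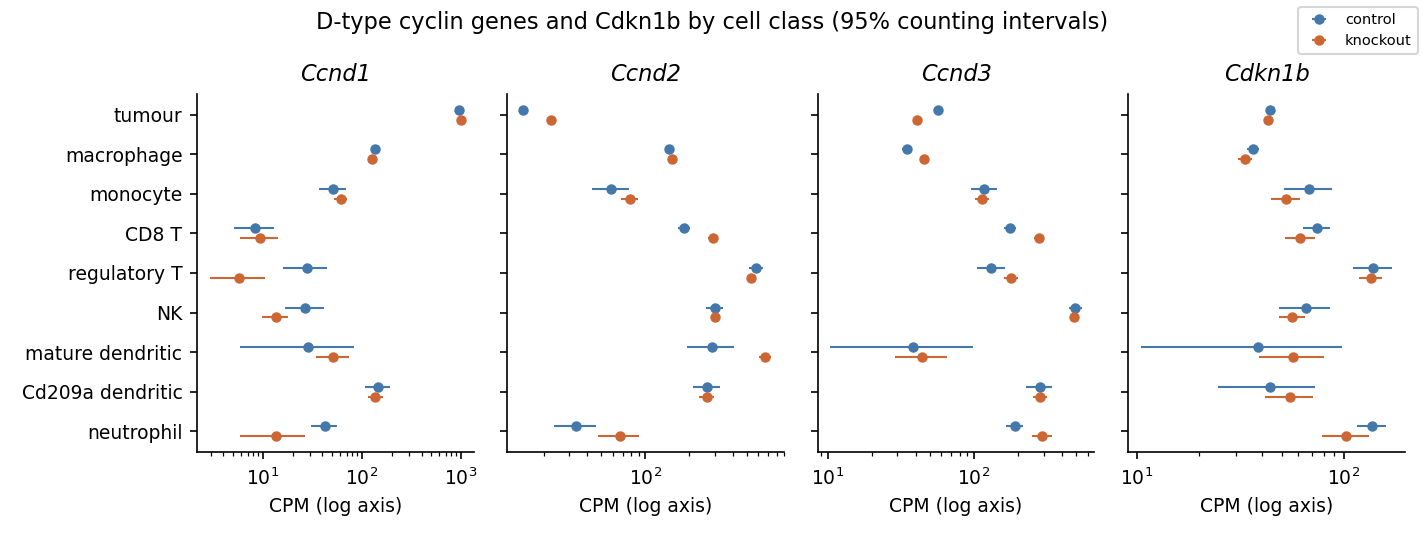
CPM (log axes, which differ) of the 3 D-type cyclin genes and Cdkn1b in each gated class, control and knockout, with 95% counting intervals. Ccnd1 is highest in tumour cells (964 and 996 CPM), Ccnd3 in NK cells (495 and 486 CPM), and Ccnd2 is lowest in tumour cells (14.4 and 22.5 CPM).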

How the data were processed

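The deposited matrix holds raw UMI counts per gene and barcode. Per the submitters' processing notes the authors used Cell Ranger 2.1.1 and mm10, while the file header names Cell Ranger 6.0.1. Which version made the matrix is not known. The barcode suffix was matched to a library by the labels' library number alone. Cells were kept with at least 500 UMIs, 200 genes and at most 20% mitochondrial UMIs, and Scrublet, run in scanpy 1.11.5 on each library, marked doublets that were removed (217 control cells, 2.80%, and 201 knockout cells, 2.89%). Classes were gated on UMIs of marker genes, and 2457 and 2617 cells met no gate. UMIs were summed per class and library and scaled by the class total. Intervals are exact at 95%: Poisson for CPM, conditional binomial for ratios, Clopper-Pearson for shares. They cover counting error only, and a sum that rests on 1 cell is less certain than its interval. With 1 library per group no test was made. A gene was measured with at least 20 UMIs over both libraries, and a difference was counted from 1.5-fold. Thinning drew UMIs without replacement. All 37 genes were to be described, and of each other list the 3 highest and 3 lowest ratios. The genes, lists and gates were chosen with earlier results of these data known. The ranges of tumour cells, the 1-Epcam gate and the removal of top cells were added after seeing the data. The ratios were tested on simulated Poisson counts of whole classes. That check does not cover UMIs that gather in few cells. The mean number of UMIs left by thinning was checked on the gated CD8 T cells, not on simulated data. Sums and intervals used pandas 2.3.3, scipy 1.17.1 and numpy 2.4.6 under Python 3.11.15, and plots matplotlib 3.10.9.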

Additional observations from a re-analysis of the deposited data

Results flagged for a closer look

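The G2/M sum was higher in the knockout library in NK cells and lower in it in monocytes and in CD8 T cells. The log2 ratio of NK cells exceeded that of monocytes by 1.74 and that of CD8 T cells by 2.09. These opposite directions drew attention, and with 1 library per group the difference was not tested. A single cell held 59.3% of the G2/M UMIs of control NK cells and 44.8% of those of control monocytes. Without the top cells the ratio was 2.15 in NK cells, 0.035 in monocytes and -1.11 in CD8 T cells. When each cell weighed the same it was -0.056, -0.66 and -1.12, so the direction in NK cells depended on the weighting. The NK cell removed from the control held 83 UMIs of NK markers, and that removed from the knockout held 1. Expected G2/M-positive shares of NK cells at 1000 UMIs were 3.62% for control and 3.55% for knockout.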

How the results depend on the processing

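No paired analysis was possible because each group had 1 library. No replicate could be left out for the same reason. Among the listed alternatives, 206 values moved by less than their counting interval, 84 moved by more, and 1 whose interval lay clear of 0 changed sign. The G2/M ratio of regulatory T cells, whose interval spans 0, also turned negative under 2 settings. Among those chosen after seeing the data (1 Epcam UMI, without top cells) the numbers were 37, 10 and 1. These tallies also include counts of genes, which carry no counting interval. When each cell weighed the same, the G2/M log2 ratio of NK cells changed sign to -0.056, that of regulatory T cells turned to -0.024 and that of macrophages was -0.22, the S ratio was 0.37 in tumour, -0.34 in CD8 T and 0.17 in NK cells, and 1 gene instead of 2 was at least 1.5-fold higher in CD8 T cells. Without the top G2/M cell of each library the G2/M ratio changed sign to 0.035 in monocytes and was 0.68 in regulatory T cells and 2.15 in NK cells, where the S ratio was 0.67. The G2/M percentage was then 59.1 and 43.4 in control and knockout CD8 T cells, and 25 and 48.3 in NK cells. With 2 times the gate UMIs the G2/M ratio was 0.17 in tumour, -0.96 in CD8 T and -0.11 in regulatory T cells, the G2/M percentage was 71.3 and 67.8 in tumour cells and 49.0 in knockout NK cells, and G2/M-positive tumour cells were 18.0% and 24.3%. With 1 Epcam UMI the tumour G2/M ratio was 0.23 and the control G2/M percentage 70.0. With called doublets kept, the regulatory T ratio was 0.20. Without cells rich in Wfdc18 or Krt5 the knockout tumour G2/M percentage was 67.6. Without Pcna and Top2a it was 65.2 there, and 59.8 and 44.7 in CD8 T cells, and G2/M-positive tumour cells were 14.7% and 19.0%.

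G2/M-positive tumour cells were 10.9% and 13.1% at 500 UMIs, 21.6% and 30.3% at 2000 UMIs, 27.0% and 35.3% with at least 1 UMI, and 12.7% and 16.0% with at least 3 UMIs. In CD8 T cells they were 9.63% of the control and 2.60% of the knockout at 500 UMIs, and 18.8% and 9.47% at 2000 UMIs. The CD8 T shares were 26.2% and 17.7% with at least 1 UMI, and 10.7% and 2.60% with at least 3 UMIs. In each of these settings tumour cells had the higher share in the knockout and CD8 T cells in the control. The libraries cannot be told apart from the groups, and differences between tumours were not measured. Low cell numbers limit NK, regulatory T and monocyte values.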
